A study of Mus musculus with 32 samples.

Results

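The 10 genes Itgam, Itgax, Itgal, Itgb2, Itga4, Itga5, Itga6, Itgb1, Itgav and Itgb3, which encode integrin subunits, were followed through the IGF2BP3 binding maps and RNA tables of a mouse MLL-Af4 leukemia. They were chosen by symbol, and their peaks were those whose names carried the genes' Ensembl identifiers. All 10 were listed among the 25887 genes of the CD11b+ RNA table, and 9 were listed among the 26560 genes of the Lin- RNA table. The exception was Itgam, whose RNA level in Lin- cells was not analysed here.

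The series held 32 libraries from 2 cell types, both of which carried the MLL-flag-Af4 fusion delivered by an MSCV retrovirus. Lin- cells were lineage-depleted mouse bone marrow cells that had been infected with this virus and selected with G418. CD11b+ cells were taken from splenic tumors of leukemic mice and positively selected with an antibody to CD11b, the protein that Itgam encodes. RNA-seq compared wild type (WT) with Igf2bp3 knockout (I3KO) cells, whose deletion is germline, with 3 libraries per genotype and cell type. Enhanced crosslinking and immunoprecipitation (eCLIP) with an IGF2BP3 antibody was made from WT/MLL-Af4 cells, with 6 Lin- libraries (3 biological and 3 technical) and 4 CD11b+ libraries (2 biological and 2 technical), each with its own size-matched input (smInput). The labels do not say which biological library a technical one repeats, nor the age of the mice, and the names of the CD11b+ eCLIP libraries begin with "bm" although the described source is spleen.

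Integrins are surface receptors built from one alpha and one beta subunit, which bind matrix proteins or receptors on other cells and link them to the actin cytoskeleton. The beta2 subunit (Itgb2, CD18) pairs with alphaM (Itgam, CD11b), alphaX (Itgax, CD11c) or alphaL (Itgal, CD11a) into the leukocyte integrins, which myeloid cells use for adhesion, phagocytosis and migration. The beta1 subunit (Itgb1) pairs with alpha4 (Itga4), alpha5 (Itga5) or alpha6 (Itga6), which anchor blood progenitors to VCAM-1, fibronectin and laminin, and alphav (Itgav) pairs with beta3 (Itgb3) as a receptor for vitronectin and other matrix proteins. IGF2BP3 is an oncofetal RNA-binding protein that binds CA-rich RNA.

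In the GENCODE annotation of GRCm38 (mm10), the beta2 group comprises Itgam (ENSMUSG00000030786) at chr7:128062640-128118491, Itgax (ENSMUSG00000030789) at chr7:128129547-128150657, Itgal (ENSMUSG00000030830) at chr7:127296260-127335138 and Itgb2 (ENSMUSG00000000290) at chr10:77530252-77565708. The beta1 group comprises Itga4 (ENSMUSG00000027009) at chr2:79255426-79333123, Itga5 (ENSMUSG00000000555) at chr15:103344286-103366763, Itga6 (ENSMUSG00000027111) at chr2:71745616-71858416 and Itgb1 (ENSMUSG00000025809) at chr8:128685654-128733200. The vitronectin receptor group comprises Itgav (ENSMUSG00000027087) at chr2:83724397-83806916 and Itgb3 (ENSMUSG00000020689) at chr11:104608000-104670476. Every gene but Itga5 lies on the plus strand.

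The number of filtered peaks, those kept by the authors after comparison with the smInput, ranged from 4040 to 10042 in the Lin- and from 7085 to 10054 in the CD11b+ libraries. Read depth is not given in these files, so a gene with no peak cannot be called unbound. All 8 progenitor markers in the list, Mpo and Kit among them, averaged 1000 normalized counts or more in Lin- cells, against 5 of 8 in CD11b+ cells. Their sum was nevertheless higher in CD11b+ cells (197154 against 180483). Myb, at 37516 against 22676, Elane, at 43055 against 14416, and Prtn3, at 29591 against 14582, were listed higher there. The rest of the list was lower in CD11b+ cells: Kit (673 against 6974), Flt3 (390 against 9396), Cd34 (1291 against 9052), Gata2 (536 against 2176) and Mpo (84102 against 101212). In CD11b+ cells 7 of 8 monocyte or macrophage markers and 4 of 6 neutrophil markers passed that level, against 5 of 8 and 3 of 6 in Lin- cells. Of the 4 erythroid markers, 2 passed it in CD11b+ cells (Hba-a1 at 1268 and Hbb-bs at 1083) and 0 in Lin- cells, and megakaryocyte or platelet markers summed to 22.8 in CD11b+ and 744 in Lin- cells. These tables were normalized separately, and the part of such cells in the integrin values was not tested. Itgam itself, the gene that defines the CD11b+ selection, was listed at a mean of only 17.0 in CD11b+ cells. A same-strand gene model, Gm49368, covers 70% of Itgam's 4926 exonic bases and was listed at 77.2, so the counting could have split or dropped reads, and Itgam's RNA level is uncertain. In these bulk samples, fewer cells of a type and less RNA per cell cannot be told apart.

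Sites of 5 of the genes are shown first, chosen among the up to 2 sites per gene that were found in the most libraries. They were chosen because they include integrin sites with many reads and sites with repeats. The shares of sites with such repeats are given below, beside those of all sites. Each line gives 30 bases of the mouse genome (GRCm38, mm10) around the summit of the peak with the most reads, 5′ to 3′ on the gene's strand. Capitals mark dinucleotide repeats. A CA repeat was read as a match to ACACAC or to CACACA on the gene's strand, a GA repeat as GAGAGA or else AGAGAG, and a GT repeat as GTGTGT or else TGTGTG.
Itgam, 3′ UTR, chr7:128117530-128117559 (+): agagaaAGAGAGAGAGAGAaAGAGAGAGgg
Itgam, 3′ UTR, chr7:128118233-128118262 (+): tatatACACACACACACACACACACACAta
Itgb2, intron 3, chr10:77544690-77544719 (+): cagaggtggataagggcAGAGAGAGAGAGA
Itgb2, intron 8, chr10:77554125-77554154 (+): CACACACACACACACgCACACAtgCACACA
Itgal, intron 18, chr7:127318098-127318127 (+): tgcttacaggaagcgagcacactcgtctgg
Itga4, 3′ UTR, chr2:79329295-79329324 (+): acttcatcttcctccccctctgcatcctct
Itga4, intron 2, chr2:79266088-79266117 (+): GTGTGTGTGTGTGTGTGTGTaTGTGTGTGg
Itga6, intron 9, chr2:71827057-71827086 (+): GAGAGAGAGAGAGAGAGAGAGAGAGAaaga
All but one of these windows come from CD11b+ libraries, the exception being Itgal intron 18, whose highest peak was in a Lin- library.

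A second set of sites crossed exon-intron junctions. These 30-base windows are centred on the junction, with the exon in capitals and the intron in lower case, and were chosen after the values were seen, as the junction sites present in the most libraries.
Itgal, acceptor of exon 2, chr7:127297603-127297632 (+): ctttgctccccgcagCCAAGGCCTGGAGCT
Itga4, acceptor of exon 9, chr2:79281631-79281660 (+): tttgctttggaacagCTTGGCTCATACTTT
Itga4, donor of exon 9, chr2:79281769-79281798 (+): ATCAACTCTGGCATGgtatgtctgattgtc
Itga4, acceptor of exon 10, chr2:79284725-79284754 (+): tccatcctcatctagGGAGCTGTGATGGTT
Itga4, donor of exon 19, chr2:79314996-79315025 (+): GATCGCCTCTCAAGGgtaagcatttaacat
Every acceptor shown ends its intron in AG, and every donor begins its intron in GT, the bases that splicing requires at these places. Exon numbers follow, for each gene, the annotated transcript with the longest coding sequence.

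At least 1 filtered peak was found on 7 of the 10 integrin genes in CD11b+ cells (Itgam, Itgax, Itgal, Itgb2, Itga4, Itga5 and Itga6), where 25.6% of all genes in the table had one. In Lin- cells 8 of the 10 had one (Itgam, Itgax, Itgal, Itgb2, Itga4, Itga6, Itgav and Itgb3), against 26.5% of all genes. Peaks are called more often on abundant RNA, and 6 of the 10 integrin genes in CD11b+ cells and all 9 listed in Lin- cells averaged 1000 normalized counts or more. Of all genes at that level, which was chosen after the values were seen, 68.4% had a peak in CD11b+ cells and 76.5% in Lin- cells. Of the integrin genes at that level, 5 of 6 had a peak in CD11b+ and 7 of 9 in Lin- cells. With a peak required in at least 2 biological libraries, 4 of 10 remained in CD11b+ cells, namely Itgam, Itgal, Itgb2 and Itga4, against 10.2% of all genes, and 3 of the 6 abundant ones, against 37.9% of all abundant genes. In Lin- cells 6 of 10 remained, those 4 with Itga6 and Itgb3, against 13.7% of all genes, and 5 of the 9 abundant ones, against 46.9%. The rule asks for 2 of 3 biological libraries in Lin- cells but for both of 2 in CD11b+ cells. It counts genes, not positions. In Lin- cells only Itgal and Itga4 had sites called in at least 2 biological libraries, 3 each. The Lin- peaks of Itgam, Itgb2, Itga6 and Itgb3 lay at different positions in different biological libraries. No smInput library had a peak on any of the 10 genes. None of their 93 CD11b+ and 63 Lin- peaks was removed by the smInput comparison, which removed 10.8% to 25.9% of all peaks per library. The smInput libraries held few peaks, 217 to 1808 in Lin- and 1381 to 1885 in CD11b+ cells. The eCLIP libraries held 5455 to 11606 and 8566 to 11771 before the comparison. The share of all genes without an smInput peak, or without a removed peak, was not counted, so neither observation sets the integrin genes apart.

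**Figure D1:**
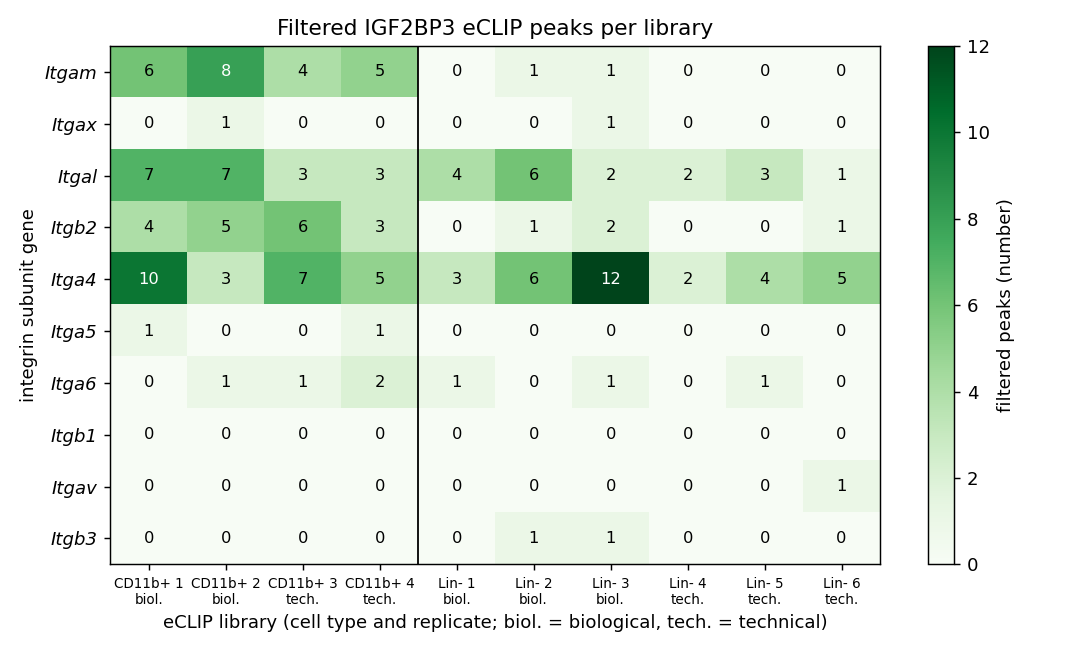
Number of filtered IGF2BP3 eCLIP peaks on each integrin gene (rows) in each of the 4 CD11b+ and 6 Lin- libraries (columns), with darker green for more peaks and the number in each cell. Itgam and Itgb2 had 3 to 8 peaks in each CD11b+ library and 0 to 2 in each Lin- library, whereas Itgal and Itga4 had peaks in every library and Itgb1 had none.

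Among the beta2 integrins, Itgam, which encodes the complement receptor subunit on which the CD11b+ cells were selected, carried 6, 8, 4 and 5 filtered peaks in CD11b+ replicates 1 to 4. In the 6 Lin- libraries it carried 0, 1, 1, 0, 0 and 0. The cell types did not overlap, and the peaks held 61, 188, 62 and 94 reads in the CD11b+ libraries against at most 6 in any Lin- library. The share of all genes that separate over all libraries was not counted. In biological libraries alone, 10.6% of all 9290 genes with a peak there had the CD11b+ ones above all Lin- ones. Most of these genes lacked a peak in both CD11b+ biological libraries and could not show this order. These reads were not scaled to the library. All filtered peaks of a library held 91587 to 161236 reads in CD11b+ and 35663 to 233695 in Lin- cells. The CD11b+ cells were selected on the protein of Itgam, so selection and binding cannot be told apart in this contrast. The 23 CD11b+ peaks merged into 11 sites, 8 of them in introns, 2 in the 3′ UTR and 1 across the acceptor of exon 14. One 3′ UTR site (chr7:128117488-128117613), a GA-repeat stretch, had 30, 109, 35 and 75 reads in replicates 1 to 4, and the 109 reads were the most of any integrin site in a single library. A CA-repeat site lay further along (chr7:128118224-128118274) with 5, 12, 6 and 4 reads. Both sites are 3′ UTR in another annotated transcript than the one with the longest coding sequence. Of the 11 sites, 6 held ACACAC or CACACA, 3 of them in intron 8 and 2 in intron 24. The Lin- peaks held 5 reads in intron 5 and 6 reads at the acceptor of exon 23, and the second of these overlapped a CD11b+ site. All these sites also lie within the span of Gm49368 (chr7:128062683-128128160, plus strand), whose identifier no filtered peak carried. The peaks are named for Itgam, but their positions do not tell the overlapping models apart.

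Itgb2, the shared beta chain of the leukocyte integrins, followed the same order, with 4, 5, 6 and 3 peaks in the CD11b+ libraries and 0, 1, 2, 0, 0 and 1 in the Lin- libraries. Its peaks held 48, 91, 55 and 40 reads in CD11b+ cells and between 0 and 7 in Lin- cells, with no overlap between the cell types. As for Itgam, these reads were not scaled, and the share of all genes that separate over all libraries was not counted. In biological libraries alone that share was 10.6%, again over genes most of which could not show this order. Of the 11 CD11b+ sites of Itgb2, 10 lay in introns. The one present in all 4 libraries, in intron 3 (chr10:77544674-77544752), had 21, 26, 23 and 17 reads and no Lin- counterpart. The CA-repeat site in intron 8 (chr10:77554110-77554175) had 0, 18, 4 and 17 reads in CD11b+ replicates 1 to 4 and was also called in 1 Lin- library, with 3 reads. The RNA was listed at a mean of 25977 normalized counts in CD11b+ cells and 5213 in Lin- cells, in tables that were normalized separately. The part of this RNA level in the number of peaks was not tested.

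Itgal, the alpha chain of LFA-1, which binds ICAM-1, had 7, 7, 3 and 3 peaks in the CD11b+ libraries and 4, 6, 2, 2, 3 and 1 in the Lin- libraries. The cell types overlapped over all libraries, with 35 to 105 reads in CD11b+ and 6 to 91 in Lin- cells. Its acceptor site at exon 2 was the only integrin site found in every library of both cell types. That site held 72, 61, 61 and 24 reads in CD11b+ replicates 1 to 4 and 17, 14, 20, 6, 5 and 6 reads in Lin- replicates 1 to 6. The intron 18 site showed no such regularity, with 36, 48, 0, 9, 28 and 0 reads in the Lin- libraries and 0, 25, 0 and 11 in the CD11b+ libraries. Itgax, the alpha chain of the complement receptor typical of dendritic cells, had a single peak of 3 reads in 1 CD11b+ library and another single peak of 3 reads in 1 Lin- library, at the acceptors of exons 17 and 19. The value of 3 reads was also the smallest number in any filtered peak.

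**Figure D2:**
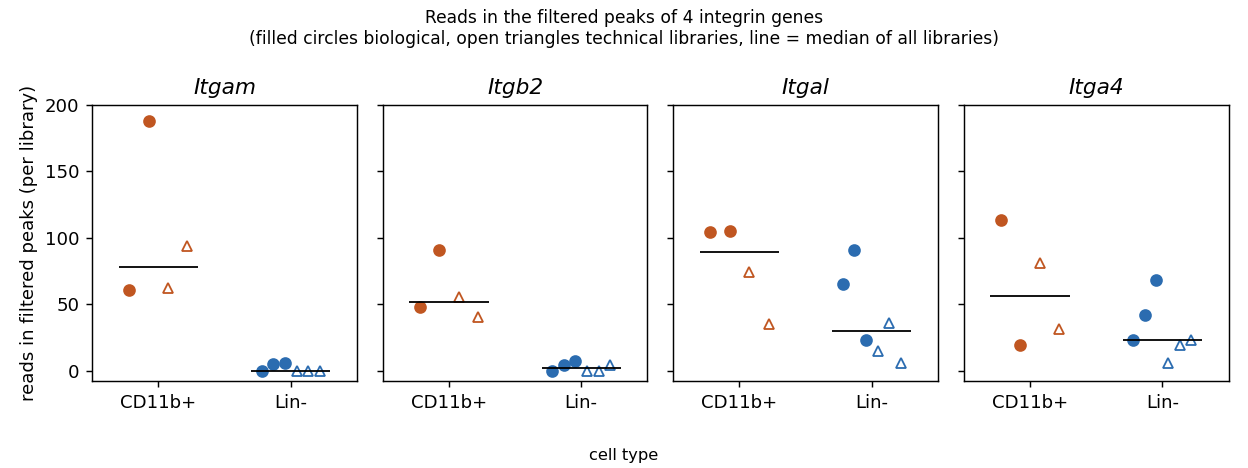
Reads in the filtered peaks (vertical axis, number per library) of Itgam, Itgb2, Itgal and Itga4 in CD11b+ and Lin- cells, with filled circles for biological and open triangles for technical libraries and a line at the median of all libraries. For Itgam the 4 CD11b+ libraries lie between 61 and 188 reads and the Lin- libraries between 0 and 6, for Itgb2 between 40 and 91 against 0 and 7, and for Itgal and Itga4 the cell types overlap. The reads are not scaled to the library.

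Among the subunits that pair with beta1, Itga4, the alpha chain of the VLA-4 receptor for VCAM-1, had the most sites. It carried 10, 3, 7 and 5 peaks in the CD11b+ libraries and 3, 6, 12, 2, 4 and 5 in the Lin- libraries, so the cell types overlapped. The positions of the sites are given next. In Lin- cells 15 of 20 sites crossed an exon-intron junction, spread over exons 6 to 28, whereas in CD11b+ cells 1 of 11 did. That one, the donor of exon 19, was also a Lin- site and was called in a technical CD11b+ library alone. Sites of all genes had the same order, with 45.8% across a junction in Lin- and 10.3% in CD11b+ cells. The Lin- number for Itga4 rested largely on replicate 3. In biological libraries alone 14 of 18 sites crossed a junction, and without replicate 3 this was 7 of 9, so the number fell while the proportion stayed high. In CD11b+ cells 4 sites lay in the 3′ UTR against 1 in Lin- cells. The strongest of them (chr2:79329273-79329389) had 39, 4, 31 and 5 reads in CD11b+ replicates 1 to 4, high in replicates 1 and 3 and low in replicates 2 and 4, and no Lin- counterpart. The Lin- junction sites were weak one by one: the acceptor of exon 10 had 0, 9, 11, 0, 0 and 4 reads, and the acceptor of exon 9 had 11, 0, 0, 3, 7 and 0. No junction site of Itga4 was called in more than 3 of the 6 Lin- libraries.

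The other beta1 partners had few peaks. Itga6, a laminin receptor chain, had 0, 1, 1 and 2 peaks of 0 to 9 reads in the CD11b+ libraries and 1, 0, 1, 0, 1 and 0 peaks of 3 or 4 reads in the Lin- libraries. Both of its CD11b+ sites lay in introns, and the intron 9 site, a GA repeat, overlapped a site of 1 Lin- library. In both cell types this intron 9 site was called in technical libraries alone. Itga5, the fibronectin receptor chain, had one intron 2 site (chr15:103357790-103357872, minus strand) with 7 reads in CD11b+ replicate 1 and 4 reads in replicate 4, and no peak in Lin- cells. Itgb1 itself had no peak in any of the 10 eCLIP libraries, before or after the smInput comparison. It was nevertheless listed at means of 4047 normalized counts in CD11b+ cells and 6278 in Lin- cells, above the level at which 68.4% and 76.5% of genes had a peak.

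The vitronectin receptor chains were also nearly without peaks. Itgav had 1 peak of 3 reads in 1 technical Lin- library. Itgb3 had 1 peak of 4 reads in the 3′ UTR in Lin- replicate 2 and 1 peak of 4 reads in intron 10 in replicate 3. Neither gene had a peak in CD11b+ cells, where Itgb3 was listed at a mean of 315 against 2935 in Lin- cells. Itgb3 is also the beta chain of the platelet fibrinogen receptor, whose alpha chain Itga2b was listed at 42.9 in CD11b+ and 1922 in Lin- cells. The platelet markers Pf4, at 1.80 against 393, and Ppbp, at 5.90 against 277, moved with them, and their part in the Itgb3 level was not tested.

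To compare the cell types over independent libraries, the peaks on the 10 genes were divided by all filtered peaks of the library and only biological libraries were used. The integrin genes held 2.89 ± 0.565 (SD, n = 2) per 1000 filtered peaks in CD11b+ cells and 1.63 ± 0.619 (SD, n = 3) in Lin- cells. The 2 CD11b+ libraries, at 3.29 and 2.49, lay above the 3 Lin- libraries, at 1.09, 1.49 and 2.30. The difference of 1.26 gave p = 0.2 in a two-sided exact permutation test, whose 10 splits allow no p below 0.1. Without Itgam, the selection marker, the difference was 0.580 (p = 0.4, exact permutation test). Counted over all libraries, technical ones included, the integrin peaks held 213 to 411 reads per library in CD11b+ and 21 to 146 in Lin- cells.

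Gene by gene, the CD11b+ biological libraries lay above all Lin- ones for Itgam, Itgb2 and Itgal, 3 of the 8 integrin genes with a peak in a biological library. Of all 9290 such genes, 10.6% did the same. This order requires a peak in both CD11b+ biological libraries, which 4 integrin genes and 2637 of the 25887 genes listed for CD11b+ cells had. Most of the 9290 genes could therefore not show it. The share among genes that could, or among genes of like RNA level, was not counted, so the 3 genes do not set the integrins apart. No integrin gene showed the opposite order, which 9.34% of genes showed. The means per 1000 filtered peaks were 0.75 ± 0.0647 in CD11b+ and 0.0716 ± 0.0625 in Lin- cells for Itgam, and 0.483 ± 0.0197 against 0.110 ± 0.115 for Itgb2 (SD, n = 2 and 3). For Itgal they were 0.759 ± 0.0886 against 0.457 ± 0.198, and for Itga4 0.736 ± 0.619 against 0.796 ± 0.516, where the libraries of the cell types overlapped.

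Merged across libraries wherever peaks overlapped on one strand, the peaks formed 45 sites in CD11b+ and 40 in Lin- cells. Of the CD11b+ sites, 30 lay wholly in introns (66.7%, exact 95% interval 51.0% to 80%), beside 75.0% of all 17389 CD11b+ sites. Of the Lin- sites, 14 did (35.0%, 20.6% to 51.7%), beside 36.6% of all 20089 Lin- sites. The 3′ UTR held 7 CD11b+ and 3 Lin- integrin sites, 15.6% and 7.5%, beside 7.70% and 3.21% of all sites. The intervals cover counting error only, and sites of one gene are not independent. Sites touching a coding exon numbered 8 in CD11b+ and 21 in Lin- cells, and all 8 and 20 of the 21 crossed an exon-intron junction. Without the sites of Itga4, 11 of 20 Lin- sites lay in introns (55.0%). Without Lin- replicate 3 and the technical libraries, 18 Lin- sites were left.

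**Figure D3:**
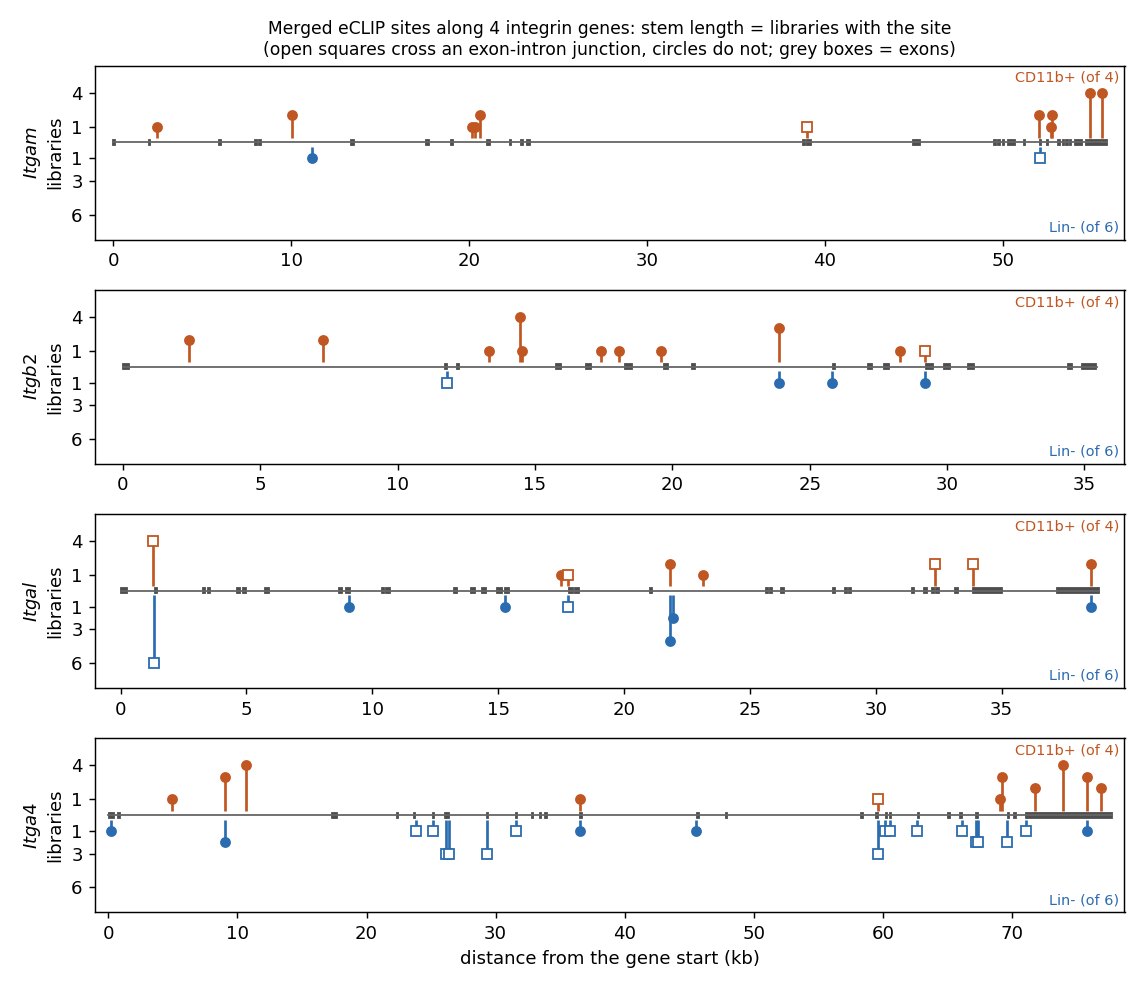
Merged eCLIP sites along Itgam, Itgb2, Itgal and Itga4, with distance from the gene start in kb on the horizontal axis, grey boxes for exons, and stems whose length is the number of libraries with the site (CD11b+ above, out of 4, and Lin- below, out of 6). Open squares, the sites across exon-intron junctions, make up 15 of the 20 Lin- sites of Itga4, beside 45.8% of the Lin- sites of all genes. The 2 sites found in all 4 CD11b+ libraries of Itgam stand at its 3′ end.

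Counted directly, 21 of 40 Lin- integrin sites (52.5%, exact 95% interval 36.1% to 68.5%) and 8 of 45 CD11b+ sites (17.8%, 8.0% to 32.1%) crossed a junction, beside 45.8% and 10.3% of all sites with an annotated gene. In biological libraries alone these were 20 of 34 and 6 of 40, and 8 of 18 without Lin- replicate 3, 5 of 25 without CD11b+ replicate 1 and 2 of 28 without CD11b+ replicate 2. Acceptors prevailed, with 14 acceptor and 7 donor sites in Lin- cells and 7 and 1 in CD11b+ cells. Among all sites the order was the same, with 6378 acceptor and 2515 donor sites in Lin- and 999 and 760 in CD11b+ cells. This order therefore does not set the integrin genes apart, and the CD11b+ integrin counts are small. Of the Lin- integrin junction sites, 20 of 21 covered more intronic than exonic bases, with medians of 40 intronic and 9 exonic bases. With each site named by its midpoint alone, the intronic share was 85% in Lin- and 84.4% in CD11b+ cells. In single libraries the junction share of integrin peaks was 7.14% and 20.0% in the CD11b+ biological libraries and 50%, 33.3% and 75.0% in the Lin- ones. The means of 52.8% ± 21.0 (SD, n = 3) in Lin- and 13.6% ± 9.09 (SD, n = 2) in CD11b+ cells gave a difference of 39.2 percentage points (p = 0.2, two-sided exact permutation test, smallest possible p 0.1). All filtered peaks had the same order, with 22.1% to 52.7% across junctions in the Lin- and 6.45% to 9.42% in the CD11b+ libraries.

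**Figure D4:**
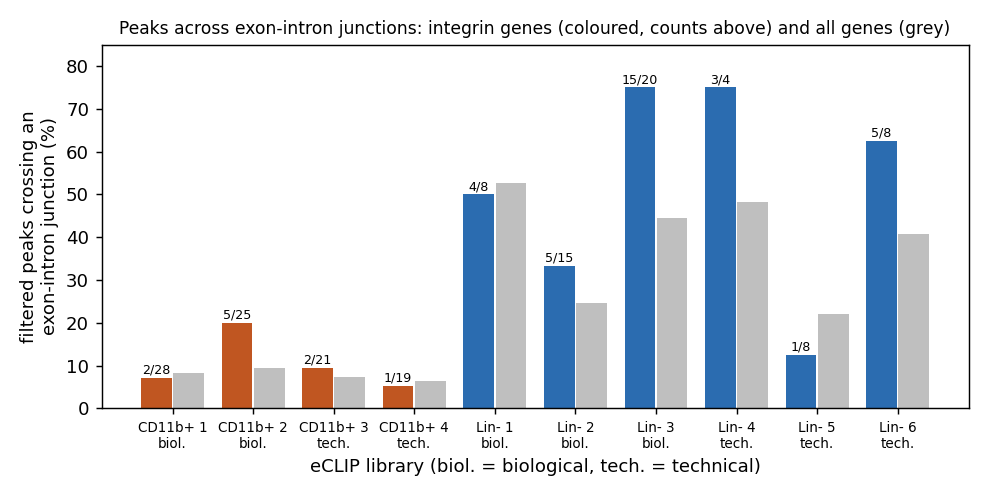
Percentage of filtered peaks that cross an exon-intron junction in each eCLIP library, for integrin genes (coloured bars, with the count of crossing peaks over all integrin peaks above each bar) and for all genes (grey bars). All-gene shares lie between 6.45% and 9.42% in the CD11b+ and between 22.1% and 52.7% in the Lin- libraries, and the integrin bars rest on 4 to 28 peaks each.

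The 6-mers ACACAC or CACACA were present in 10 of 45 CD11b+ integrin sites (22.2%, exact 95% interval 11.2% to 37.1%) and in 3 of 40 Lin- sites (7.5%, 1.57% to 20.4%), beside 17.2% and 8.48% of all sites of the cell type. Itgam held 6 and Itgb2 held 3 of the CD11b+ ones, and Itga4 the remaining one. The shares of all sites lay within the intervals of the integrin sites.

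There were 12 sites found in both cell types, which is 30.0% of the Lin- and 26.7% of the CD11b+ integrin sites. Itgal and Itga4 had 4 each, Itgb2 had 2, and Itgam and Itga6 had 1. No shared site was found on Itgax, Itga5, Itgav or Itgb3. In biological libraries alone 8 sites were shared, of 34 Lin- and 40 CD11b+ sites. The share of all sites found in both cell types was not counted, so these shares do not set the integrin genes apart. Only 10 of 45 CD11b+ sites (22.2%) and 6 of 40 Lin- sites (15.0%) were called in at least 2 biological libraries, beside 19.0% and 22.9% of all sites.

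The RNA tables give one authors' mean per gene and cell type over the WT and I3KO libraries together, with no spread, so levels are described and not tested. Per kb of exon, Itgb2 stood first in both cell types, at 8746 in CD11b+ and 1755 in Lin- cells. In CD11b+ cells Itgal (1432) and Itgb1 (1061) followed, then Itga5 (422), Itga4 (421), Itga6 (254), Itgax (168), Itgav (139), Itgb3 (54.5) and Itgam (3.45), whose level and place are uncertain because Gm49368 shares most of its exons. In Lin- cells Itgb1 (1646) and Itga4 (1535) followed Itgb2, then Itgal (1120), Itga6 (1075), Itgb3 (507), Itgax (496), Itga5 (382) and Itgav (167). Neighbours such as Itga5 and Itga4 in CD11b+ cells cannot be ordered without a spread.

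Within each table the place of a gene among all genes does not depend on the scaling between tables. By mean count, Itgb2 stood at percentile 99.8 in CD11b+ and 95.9 in Lin- cells, and Itgal at 98.7 and 97.5. Itgb3 stood at 66.2 and 91.1, Itga6 at 84.1 and 95.3, Itgax at 77.9 and 87.4, and Itga4 at 96.2 and 99.3. Itga5 stood at 90.4 and 83.9, Itgav at 82.4 and 78.7, and Itgb1 at 96.1 and 96.9. Genes of like RNA level could differ in peaks: Itga6 in Lin- cells (1075 per kb) had 3 peaks over 6 libraries and Itgal (1120 per kb) had 18.

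**Figure D5:**
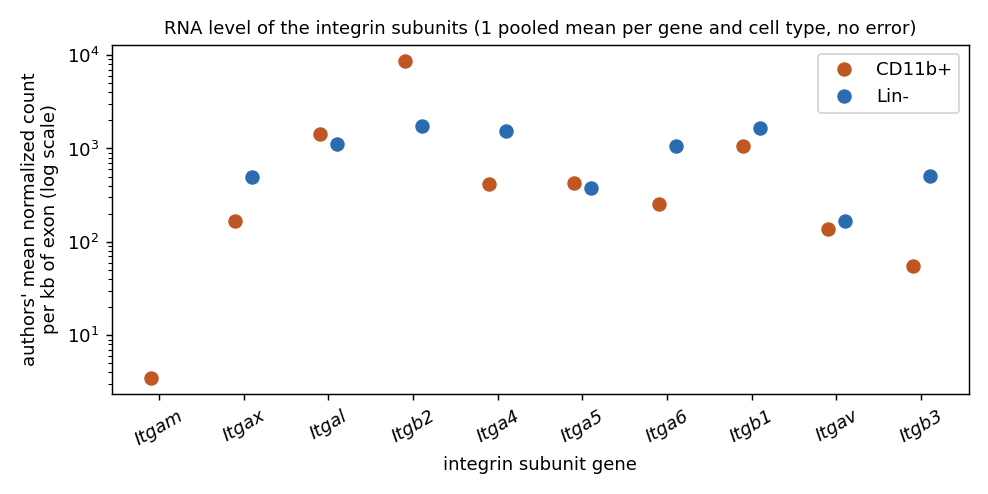
RNA level of the 10 integrin genes as the authors' mean normalized count per kb of exon, on a log scale, with 1 point per gene and cell type and no error, since the mean pools WT and I3KO libraries. Itgb2 is highest in both cell types (8746 in CD11b+ and 1755 in Lin- cells), and Itgam is shown for CD11b+ cells only, at 3.45, an uncertain level because of the overlapping Gm49368.

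Genes that work with integrins were read from 3 lists of related genes. Of 23 activators and adaptors that couple integrins to actin, 22 were in each table, and 15 had a peak in CD11b+ and 16 in Lin- cells (68.2% and 72.7%, with medians of 3113 and 3166 normalized counts). Tln1, the talin that activates integrins, had 15 sites in CD11b+ and 20 in Lin- cells, and Pxn, the paxillin scaffold, had 9 and 11. Rasgrp2, the exchange factor that activates Rap1 upstream of talin, had 18 and 9, Ptk2b, the kinase PYK2, had 6 and 8, and Apbb1ip, the Rap1 effector RIAM, had 8 and 3. Of the 18 ligands and surface partners, 2 of the 16 listed in CD11b+ cells (Cd47 and Icam1) and 6 of the 17 listed in Lin- cells had a peak, 5 of the latter in at least 2 biological libraries (Cd47, Cd9, Icam1, Icam2 and Thbs1). Cd47, an integrin-associated receptor, had 9 sites in CD11b+ and 15 in Lin- cells. Of the 17 other integrin subunits, 16 were in each table, 6 had a peak in CD11b+ cells and 3 in Lin- cells (Itgb7, Itga2b and Itga1). Beside these shares stand the percentages of all genes with a peak given above. Itgb7, which also pairs with alpha4, was the only one with a peak in at least 2 biological libraries, with 4 sites in each cell type.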

How the data were processed

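The members and gene lists were chosen with earlier results of these data known. Per the labels and the study's methods, reads were aligned to mm10 with STAR 2.5.3a (RNA-seq) and, for eCLIP, CLIPper was run per library, no eCLIP peak having a p above 0.05, and the peaks were filtered on the library's own smInput. The authors deposited a p-value for each peak. File names carry different duplicate-removal terms for eCLIP and smInput libraries. The last field of the peak name was read as the peak's number of reads. From the RNA tables only the deposited mean normalized count, a signal scaled per cell type that pools 3 WT and 3 I3KO libraries, was used. Their columns of fold changes, p-values and peak flags hold the authors' comparisons and were not used.

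Peaks overlapping by at least 1 nt on one strand were merged. Sites were located with GENCODE M21 (priority CDS, 3′ UTR, 5′ UTR, noncoding exon, intron), and sequences came from RefSeq's GRCm38.p6. Sites crossing a junction, and GA or GT repeats, were counted after the values were seen. Named related genes are those with the 5 most sites in either cell type, or those in counts of 5 or fewer. Python 3.11.15, scipy 1.17.1 and samtools 1.23.1 were used, and the scripts were tested on simulated cases. Whether numbered replicates pair across cell types is not stated in the sources used here. Total read depth per library is not in these files, so the number of filtered peaks stands in for it.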

Additional observations from a re-analysis of the deposited data

How the results depend on the processing

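Of 122 alternative values, 101 stayed within their limits, but some of these could not move, so the tally does not measure robustness. No integrin peak was removed by the smInput comparison, so counts and shares of integrin sites before it were the same by construction. The tally also includes RNA levels per kb of the longest transcript, which for Itgb2, Itga4 and others equals the union of exons. With only peaks at a CLIPper p below 0.001, genes with a peak fell from 8 to 3 in Lin- and from 7 to 4 in CD11b+ cells, Lin- sites from 40 to 15, and Lin- sites shared with CD11b+ cells from 12 to 6. With a peak required in 2 biological libraries, 4 genes remained in CD11b+ cells. Leaving out one biological library and all technical ones gave 18 (without replicate 3) to 31 Lin- sites, 25 (without replicate 1) to 28 (without replicate 2) CD11b+ sites, 6 to 7 genes with a peak in Lin- and 5 to 6 in CD11b+ cells. Naming sites by their midpoint moved the intronic share to 85% in Lin- and 84.4% in CD11b+ cells, by construction, since junction sites are mostly intronic. Without Itga4 the Lin- share was 55.0%, and with CACA in place of the 6-mers the motif share was 37.8% in CD11b+ cells, beside 24.1% of all sites, and 12.5% in Lin- cells, beside 21.2%. Leaving out one biological library gave 8 (without replicate 3) to 18 Lin- sites across junctions and 2 (without replicate 2) to 5 CD11b+ ones, and 28.1 to 48.9 percentage points for the difference in junction share (exact permutation p between 0.25 and 0.5). The alternatives on junctions, leaving out Itga4, leaving out Itgam and keeping only sites of at least 2 libraries were chosen after seeing the data.

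The difference in integrin peaks per 1000 filtered peaks stayed positive in every alternative run, between 0.859 and 1.66 when one biological library was left out. With technical libraries included it was 1.33 (p = 0.00952, exact permutation test), but these repeat the biological ones, so that p is too small. With the replicate number as a block (replicates 1 and 2 paired) it was 1.60 (exact sign-flip p = 0.5, the smallest this pairing allows). Itgam's RNA percentile in CD11b+ cells, 41.9 among all genes, was 7.03 among those with a mean of at least 10. Few reads per peak limit all statements on single sites.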

Other observations

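Repeats other than CA were also present among the CD11b+ integrin sites, an observation made after the sites were seen. GAGAGA or AGAGAG was present in 9 of 45 CD11b+ sites (20.0%) and 1 of 40 Lin- sites (2.5%), beside 11.4% and 2.98% of all sites of the cell type. GTGTGT or TGTGTG was present in 10 of 45 (22.2%) and 4 of 40 (10%), beside 24.2% and 8.16%. The GA-repeat sites included the Itgam 3′ UTR site with the most reads, the Itgb2 intron 3 site found in all 4 CD11b+ libraries, and both CD11b+ sites of Itga6. The intron 9 site of Itga6 was called in technical libraries alone.

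The following genes were chosen after their values were seen. Itga3, an alpha chain of laminin receptors, was listed at a mean of 0.664 normalized counts in CD11b+ cells and yet had 2 filtered peaks in 2 libraries. Fn1 and Vcam1, ligands of alpha5 and alpha4 integrins, were listed at means of 4418 and 2702 in CD11b+ cells with no filtered peak in any CD11b+ library. Of all genes with a mean of at least 1000 there, 68.4% had a peak, so abundant genes without a peak were not rare.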
